A study of Mus musculus with 72 samples.

Results

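The genes described here are 33 nuclear receptors of the mouse heart, taken by symbol from a table of 24237 genes, and were chosen apart from the core circadian clock genes. Rora, which also acts in the clock, is included. They comprise the thyroid hormone, retinoic acid, retinoid X, PPAR, liver X, bile acid, vitamin D, steroid hormone and estrogen-related receptors, together with RORα, the testicular receptors, the NR4A subfamily and a few further orphan receptors. Each is reported as CPM, the reads of a gene per 1000000 reads counted in its library, in all 72 libraries.

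Nuclear receptors are transcription factors that share a DNA-binding domain and, for most, a ligand-binding domain that switches partner proteins between corepressors and coactivators. Many bind DNA as a pair with a retinoid X receptor. In heart muscle PPARα and the estrogen-related receptors are known for control of fatty acid oxidation and mitochondrial genes, the thyroid receptors for control of contraction genes, and the glucocorticoid and mineralocorticoid receptors for responses to corticosteroids.

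The C57BL/6J mice fell into 4 groups. Naïve mice were Ahr+/+ offspring of dams given corn oil, low-dose and high-dose mice were Ahr+/+ offspring of dams gavaged on 3 days of gestation with TCDD (dioxin, a ligand of the aryl hydrocarbon receptor AHR) at 0.1 or 1 µg/kg, written as 100 and 1000 without a unit in the labels, and Ahr-/- mice were the untreated offspring of Ahr-/- parents, without the receptor in any tissue. The labels and the study's methods give different gavage days and different ages at harvest, 9 and about 10 months, and the labels name TCDD in all groups. Hearts of 3 mice per sex and group were divided into right atrium, left atrium and ventricles, which gives 24 groups of 3 libraries. The labels call the material cardiomyocytes, but it was dissected tissue, and genes of fibroblasts, endothelium and macrophages were read in every library. Fewer cells of a type and less RNA per cell cannot be told apart in such samples.

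Library totals ran from 11873417 to 28789382 counts, with a median of 19231739, so that 3 counts correspond to between 0.104 and 0.253 CPM. Ahr itself was at 2.00 to 9.23 CPM in the 18 Ahr-/- libraries and at 4.68 to 30.8 CPM in the other 54, so the ranges overlapped. In 17 libraries marker genes went against the label: X-inactivation and Y-linked genes in 8, the atrial light chain gene Myl4 (above or below 400 CPM) in 13. They are libraries 50, 56, 62 and 68 of female right atrium and 53, 59, 65 and 71 of male ventricle for sex, and 4, 11, 23, 24, 51, 57, 63 and 69 of the atria and 46, 53, 59, 65 and 71 of ventricle for Myl4. Among libraries 49 to 72 the same labels were affected in every group. Those labelled female right atrium had male sex genes with atrial Myl4, and those labelled male left atrium had male sex genes with ventricle-like Myl4. Those labelled male ventricle had female sex genes with atrial Myl4. Whether labels were exchanged in these or other libraries was not tested, and these markers cannot tell right from left atrium. Groups were kept as labelled, and calls that rest on the 17 libraries are given with and without them where such a fit was made. Counts at an unadjusted p are given with all libraries only.

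A few of the receptors are shown by their promoters, because they carry the results that follow: Ppara and Esrra, which differed in opposite directions in high-dose female ventricles and hold 3 and 2 matches of the core element bound by AHR, Rxrg, which differed there too and holds none, and Vdr, which differed most between chambers among the receptors above 0 in every library. The windows run from 250 bases before to 50 bases after the RefSeq start on the gene's own strand (GRCm38.p6), and capitals mark GCGTG or its complement CACGC. In Esrra both matches share bases.
Ppara, chr15:85735526-85735825, plus strand: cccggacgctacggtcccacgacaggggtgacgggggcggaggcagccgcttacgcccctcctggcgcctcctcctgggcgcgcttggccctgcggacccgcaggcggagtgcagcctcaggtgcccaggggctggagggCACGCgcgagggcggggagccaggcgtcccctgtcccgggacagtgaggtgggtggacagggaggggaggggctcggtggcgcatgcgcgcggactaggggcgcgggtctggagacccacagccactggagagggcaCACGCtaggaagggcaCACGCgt
Esrra, chr19:6921759-6922058, minus strand: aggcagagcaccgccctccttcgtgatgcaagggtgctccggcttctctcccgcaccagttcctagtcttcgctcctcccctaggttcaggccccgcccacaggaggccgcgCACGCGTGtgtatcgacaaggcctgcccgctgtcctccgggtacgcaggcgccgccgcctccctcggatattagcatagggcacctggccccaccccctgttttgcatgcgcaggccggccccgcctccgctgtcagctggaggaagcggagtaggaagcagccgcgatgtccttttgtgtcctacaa
Rxrg, first start, chr1:167598112-167598411, plus strand: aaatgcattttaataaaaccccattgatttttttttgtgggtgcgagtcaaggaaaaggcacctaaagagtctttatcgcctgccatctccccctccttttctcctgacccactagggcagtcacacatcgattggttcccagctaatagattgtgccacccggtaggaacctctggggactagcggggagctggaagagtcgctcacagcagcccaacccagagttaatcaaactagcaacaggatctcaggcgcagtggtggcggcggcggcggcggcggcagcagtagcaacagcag
Rxrg, second start, chr1:167618015-167618314, plus strand: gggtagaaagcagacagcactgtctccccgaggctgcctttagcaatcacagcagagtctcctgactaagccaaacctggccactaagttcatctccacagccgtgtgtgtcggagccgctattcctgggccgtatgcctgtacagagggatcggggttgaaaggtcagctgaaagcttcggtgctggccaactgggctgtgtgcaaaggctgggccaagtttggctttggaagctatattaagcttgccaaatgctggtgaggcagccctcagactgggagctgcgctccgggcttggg
Vdr, chr15:97908247-97908546, minus strand: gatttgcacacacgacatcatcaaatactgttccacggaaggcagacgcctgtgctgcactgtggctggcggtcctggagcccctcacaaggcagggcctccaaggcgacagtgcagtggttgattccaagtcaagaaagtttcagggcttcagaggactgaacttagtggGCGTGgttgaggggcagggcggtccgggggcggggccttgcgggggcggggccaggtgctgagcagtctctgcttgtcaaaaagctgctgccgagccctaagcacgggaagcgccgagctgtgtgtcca
Of the 33 receptors, 31 had a window among those used here, 50 windows in all. Nr3c1 and Thra had none, so the counts below leave them out. A match was present in 24 of these 50 windows (48.0%), against 10639 of 32851 windows of all genes (32.4%), while the median GC content was 59.6% in the receptors' windows and 52.7% in all. At least 3 matches, as in Ppara, were present in 3.91% of all windows, and at least 2, as in Esrra, in 11.1%. A match is a run of letters and was not tested as a binding site.

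Per kilobase of coding sequence, the receptors with the highest median over 72 libraries were those of energy metabolism. Ppara, which encodes the fatty acid sensor PPARα, had 74.7 CPM per kb, the estrogen-related receptor genes Esrra and Esrrg had 60.4 and 52.6, and Rxra, the main retinoid X receptor gene, had 50.8. The glucocorticoid receptor gene Nr3c1 followed with 45.7, Rora with 40.8, the thyroid receptor gene Thra with 39.6 and Rxrg with 35.0 CPM per kb. The ranges of these 8 over the libraries overlapped throughout, so their order does not exceed the spread.

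A middle group lay between 4.46 and 27.7 CPM per kb at the median and held 14 receptors, from Nr2c2 (the testicular receptor TR4) and Nr1h2 (liver X receptor β) at 27.7 and 26.8 down to Nr3c2 (mineralocorticoid receptor) and Nr2c1 (TR2) at 5.01 and 4.46. The retinoic acid receptors belong here, with 19.1 for Rarb, 13.7 for Rara and 12.7 for Rarg, as do Thrb with 22.6 and Pparg, the adipocyte PPAR, with 8.11 CPM per kb. Thra shares 263 coding bases with Nr1d1 on the opposite strand, Rarb 558 with Top2b, Nr1i3 806 with Tomm40l and Nr2f6 731 with Ocel1. The libraries were not described as stranded, so reads there cannot be told apart and these 4 levels are uncertain.

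The other 11 receptors had medians of 2.23 CPM per kb or less. Esr1 (estrogen receptor α) and Nr6a1 had 2.23 and 2.22, Vdr 2.10, Nr4a3 1.34, Nr1i3 (the xenobiotic receptor CAR) 1.32, Nr4a2 1.01, the bile acid receptor gene Nr1h4 0.549, Nr5a2 0.464 and Esr2 (estrogen receptor β) 0.270 CPM per kb. The hepatocyte factor gene Hnf4a had no count in 67 of 72 libraries and at most 0.182 CPM, and the progesterone receptor gene Pgr no count in 43 and at most 1.02 CPM. Hnf4a, Pgr and Esr2 lay near the limit of detection in most libraries, and a count of 0 allows up to 0.253 CPM in the shallowest library.

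**Figure D1:**
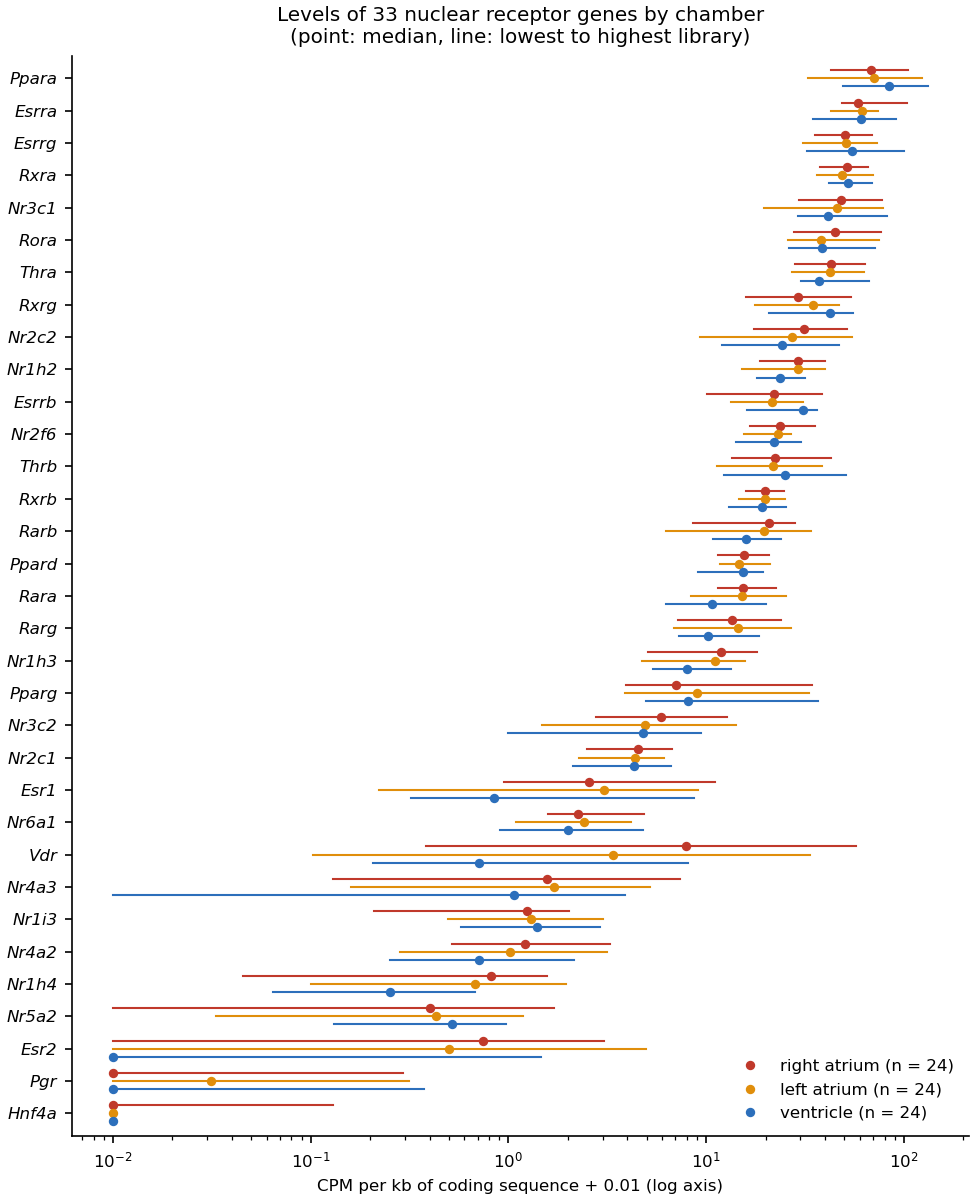
Level of each of the 33 receptor genes, as CPM per kb of coding sequence plus 0.01 on a log axis, in right atrium, left atrium and ventricle (24 libraries each). Points are medians and lines run from the lowest to the highest library. Ppara, Esrra and Esrrg lead, Hnf4a and Pgr lie at or near 0, and Vdr, Esr1 and Esr2 show the widest gaps between atria and ventricle.

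The first comparison asked how the receptors were distributed between chambers, over all groups and both sexes. Vdr, Esr2, Esr1 and Nr1h4 were higher in both atria than in the ventricle, as was the retinoic acid receptor gene Rara, and Rxrg, Esrrb, Esrrg and Ppara were lower in both atria. With edgeR's quasi-likelihood test at a Benjamini-Hochberg adjusted p under 0.05, 12 of 32 tested receptors (37.5%) differed between right atrium and ventricle, 7 higher and 5 lower, against 29.9% of all 16688 genes tested (16.3% higher and 13.6% lower). Between left atrium and ventricle 9 of 32 (28.1%) differed, 5 higher and 4 lower, against 19.4% of all genes (12.0% higher and 7.39% lower). The median log2 difference of the receptors was -0.05 and 0.02, and that of all genes 0.03 in both contrasts. Each heart gave all 3 chambers and the labels do not say which libraries share a heart, so these tests treat the libraries as independent.

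Without the 17 libraries that went against their labels, 21 of 32 receptors (65.6%) differed between right atrium and ventricle, 11 higher and 10 lower, against 46.8% of all genes, and 18 (56.2%) between left atrium and ventricle, 9 in each direction, against 43.5%. With scaling by library size alone, which moved the median of all genes by 0.20 and 0.15, the split of calls was 14 higher and 2 lower for right atrium and 10 higher and 2 lower for left atrium. The share of all genes called under that scaling is not given here. In the 18 naïve libraries alone no receptor was called in either contrast. Of those 18, libraries 4, 50, 51 and 53 went against their labels.

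Vdr, the vitamin D receptor gene (chromosome 15, 97854425 to 97910630, minus strand), ran from 0.472 to 72.5 CPM in right atrium with a median of 10.0, from 0.118 to 42.5 in left atrium with a median of 4.26, and from 0.248 to 10.2 in ventricle with a median of 0.891. The 5 highest ventricle libraries and the lowest right atrium library were among those against their labels. The log2 difference was 3.00 (SE 0.492, adjusted p = 1.94e-05) for right atrium against ventricle and 2.11 (SE 0.482, adjusted p = 0.0027) for left atrium against ventricle in edgeR's test. Without the libraries against their labels the medians were 15.4, 6.10 and 0.687 CPM, the highest ventricle library had 1.73 CPM, and the log2 differences were 4.21 and 3.32.

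Both estrogen receptor genes were higher in the atria, too. Esr2 had a median of 1.25 CPM in right atrium and 0.833 in left atrium, with 1 and 7 libraries at 0, while 16 of 24 ventricle libraries were at 0 and the highest had 2.48 CPM. That highest library, 71, and the next, 65, were against their labels, and without such libraries no ventricle library exceeded 0.151 CPM. Adjusted p was 1.09e-05 for right atrium and 0.000788 for left atrium against ventricle, and no fold is given because most ventricle libraries held no count. Esr1 had medians of 5.21, 6.21 and 1.71 CPM in right atrium, left atrium and ventricle, with log2 differences to ventricle of 0.96 (SE 0.303, adjusted p = 0.0132) and 0.97 (SE 0.303, adjusted p = 0.0197). Without the libraries against their labels the Esr1 differences were 1.96 and 2.00.

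Among the lipid and bile acid sensors, Nr1h4 had medians of 1.24, 1.03 and 0.368 CPM and log2 differences of 1.26 (adjusted p = 0.000538) and 1.08 (adjusted p = 0.00513). Nr1h3, the gene of liver X receptor α, was higher in right atrium by 0.32 on the log2 scale (SE 0.106, adjusted p = 0.0203). The orphan receptor gene Nr4a2, an immediate early gene, was higher in right atrium by 0.60 (SE 0.210, adjusted p = 0.0271). The 7 immediate early genes used as a list summed to a median of 83.6 CPM in right atrium, 79.7 in left atrium and 50.3 in ventricle, and the part of this in the Nr4a2 value was not tested. Rara differed by 0.29 and 0.26 (adjusted p = 0.00288 and 0.0134).

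The receptors lower in the atria included Ppara and estrogen-related receptors. Rxrg, the retinoid X receptor gene of striated muscle (chromosome 1, 167598384 to 167639623, plus strand), had medians of 40.3 CPM in right atrium, 48.5 in left atrium and 58.9 in ventricle, with overlapping ranges. Its log2 differences were -0.64 (SE 0.136, adjusted p = 0.000395) and -0.49 (SE 0.135, adjusted p = 0.00994), and -1.02 and -0.88 without the libraries against their labels. Esrrb, an estrogen-related receptor gene, had medians of 30.3, 29.7 and 42.7 CPM and differences of -0.51 and -0.49 (adjusted p = 0.0022 and 0.00629). Esrrg differed by -0.34 and -0.36 (adjusted p = 0.00162 and 0.00268) and Ppara by -0.43 and -0.36 (adjusted p = 0.00399 and 0.0237), and neither passed in either contrast with scaling by library size alone. Nr1i3 was lower in right atrium alone among the calls, by -0.49 (adjusted p = 0.0426), and by -0.25 in left atrium (adjusted p = 0.36).

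No receptor differed between right and left atrium in edgeR's test, where 0.00599% of all genes did. At an unadjusted p under 0.05 the count was 1 of 32, against 3.2% of all genes, and DESeq2 called none. Without the libraries against their labels edgeR again called none. The sex genes and the Myl4 limit cannot tell right from left atrium, so libraries counted as matching may still carry the label of the other atrium. Whether they do was not tested, and the absence of calls holds for the atria as labelled only. Thra was at 68.0, 67.8 and 59.3 CPM at the median, and with log2 differences of 0.03 (SE 0.0677) and 0.05 (SE 0.0677) to ventricle it lay within the error. With scaling by library size alone it passed in both contrasts, at 0.23 and 0.21.

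**Figure D2:**
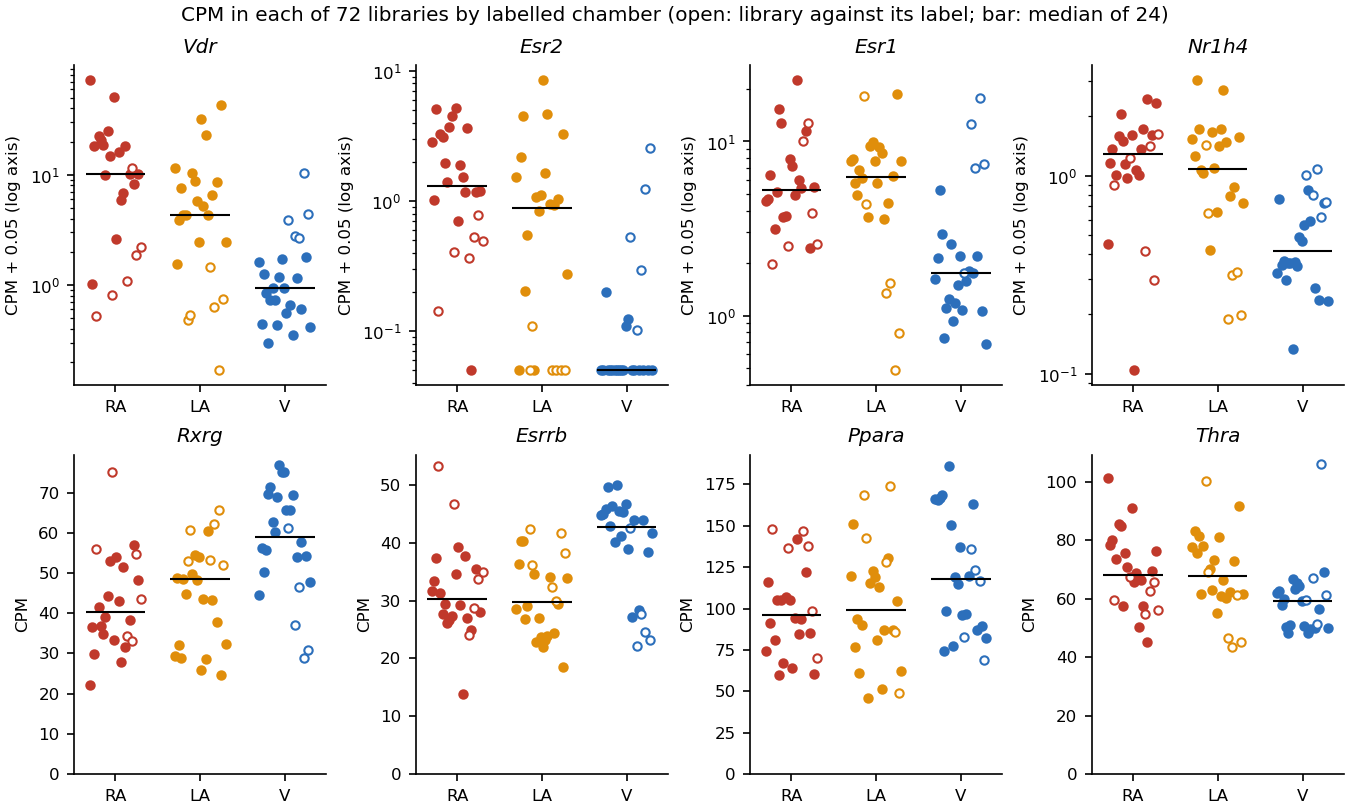
CPM of 8 receptors in each of the 72 libraries by labelled chamber (RA, right atrium; LA, left atrium; V, ventricle), with a log axis of CPM plus 0.05 for the upper row. Bars are medians of 24 libraries and open points are the libraries whose marker genes went against the label. In the upper row the high ventricle points are mostly open, and Thra shows little difference between chambers.

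**Figure D3:**
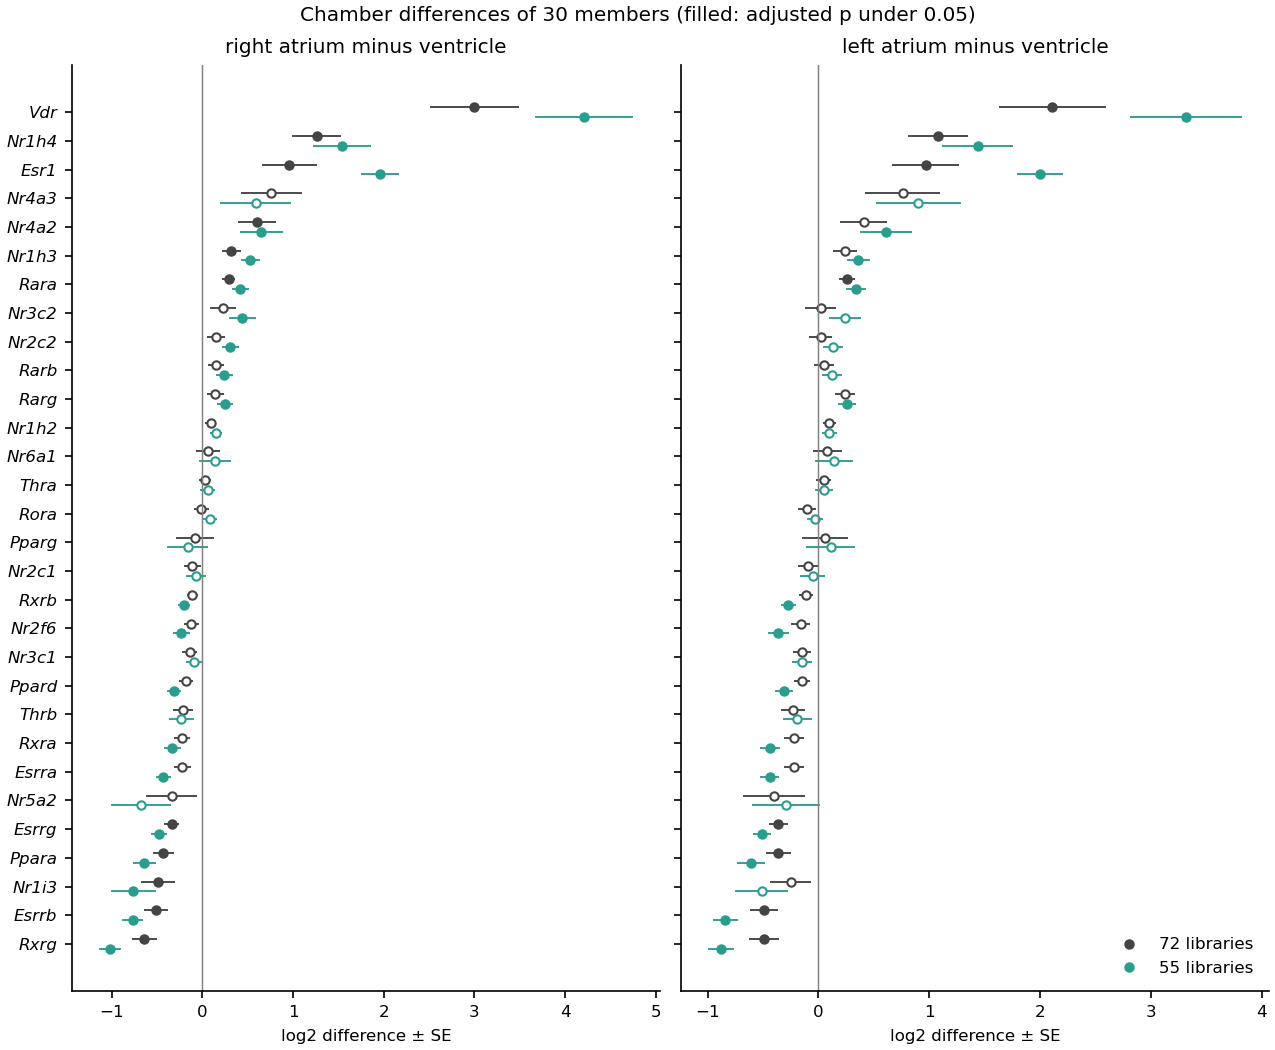
Log2 difference ± SE of 30 receptors (Esr2, Pgr and Hnf4a, with few counts, are left out) between each atrium and ventricle, from all 72 libraries (grey) and from the 55 whose markers matched the label (green). Filled points have an adjusted p under 0.05. Of those plotted, Vdr is highest in both panels at 3.00 and 2.11, Rxrg is lowest at -0.64 and -0.49, and most differences are larger without the discordant libraries.

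Target genes and ligand handling were followed with lists made from general knowledge, whose counts stand beside 29.9% of all genes called for right atrium (16.3% higher, 13.6% lower) and 19.4% for left atrium (12.0% higher, 7.39% lower). Of 15 tested targets of the PPARs, 8 were lower and 1 higher in right atrium than in ventricle, and 7 were lower and none higher in left atrium. Among those lower in right atrium were Cpt1b (-0.54), Acadm (-0.76) and Cd36 (-0.64), all genes of fatty acid uptake or oxidation. The list's median log2 difference was -0.48 and -0.41 against 0.03 for all genes. Of 20 coregulators, Ppargc1a and Ppargc1b, which encode PGC-1α and PGC-1β, were lower in right atrium by -0.36 and -0.69 (adjusted p = 0.0128 and 0.00291). Ncor1 was the only other one called lower, while Ncoa1 was among the 2 that were higher. In left atrium Ppargc1a alone was called, at -0.37 (edgeR, adjusted p = 0.0184). The share of coregulators called was below that of all genes in both contrasts.

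Of 21 tested genes of retinoid, steroid and thyroid ligand supply, 9 were higher and 2 lower in right atrium, and 7 higher and 1 lower in left atrium. The retinoic acid-forming enzyme genes Aldh1a1 and Aldh1a3 differed by 1.12 and 1.15 in right atrium and 1.09 and 1.07 in left atrium. Of 9 tested targets of retinoic acid, 3 were higher and 1 lower in right atrium and 4 higher and 1 lower in left atrium, among them Tbx5 at 1.5 and 1.19. Thyroid hormone targets gave 1 higher and 4 lower of 10 in right atrium, with Ucp2 at 1.35 and Pln at -0.78.

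Liver X receptor targets gave 2 higher and 2 lower of 10 in each atrium, with Apoe at 1.08 and Lpl at -0.91 in right atrium. Targets of the glucocorticoid receptor gave 1 higher and 1 lower of 14 in right atrium, Mt2 at 1.05 and Ptgds at -1.06, and 1 higher in left atrium. For these 14 the share called is below that of all genes in both contrasts.

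Cell markers moved with the chambers. The fibroblast list summed to medians of 2320 and 2270 CPM in right and left atrium and 1230 in ventricle, with ranges of 1170 to 3230, 692 to 3260 and 819 to 2570, the macrophage list to 212, 193 and 116, and the adipocyte list to 29.3, 81.0 and 2.79. The 5 cardiomyocyte markers summed to 36000, 36900 and 35500 CPM, with 1 of 5 lower in right atrium and none called in left atrium, but without the libraries against their labels 5 and 4 of 5 were lower, at list medians of -0.56 and -0.46. In those fits 5 of 5 fibroblast markers were higher in each atrium. Their part in the receptor differences was not tested.

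Sex was compared over all groups and chambers. The libraries from the chambers of a heart were treated as independent here too. No receptor differed between females and males in edgeR's test, against 0.24% of all genes, 4 of 32 had an unadjusted p under 0.05, against 6.66% of all genes, and DESeq2 called none. The lowest p was that of Nr4a3, at -0.83 on the log2 scale for females minus males (SE 0.272, unadjusted p = 0.00355, adjusted p = 0.297 in edgeR's test). Without the libraries against their labels there was again none, against 1.19% of all genes.

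The next question was whether gestational TCDD or loss of Ahr changed the receptors, with each group set against naïve mice of the same sex and chamber (3 libraries against 3, 18 comparisons that share the naïve libraries within a sex and chamber). Receptors were called in a single comparison, high-dose female ventricles, where 8 of 29 tested (27.6%) differed, against 3313 of 14006 genes (23.7%). The receptors' share is thus close to that of all genes. Of these 6 were lower and 2 higher, against 11.4% and 12.2% of all genes, and the median log2 difference of the receptors was 0.03 beside 0.01 for all genes. At an unadjusted p under 0.05 the count was 12, against 36.5% of all genes, and at an adjusted p under 0.0001 it was 0, against 0.0286%. Nr1h4, Hnf4a, Esr2 and Pgr fell below the minimum count.

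Both corticosteroid receptor genes were lower. Nr3c1, the glucocorticoid receptor gene, had 195, 196 and 130 CPM in naïve libraries and 88.3, 97.3 and 69.6 in high-dose libraries, so the groups did not overlap. The log2 difference was -0.85 (SE 0.135, adjusted p = 0.0014, edgeR). The fit rescales the libraries by TMM factors, so its differences are not the plain ratios of these CPM values. Nr3c2, the mineralocorticoid receptor gene, had 27.9, 20.5 and 15.3 CPM against 11.8, 14.0 and 8.80, a difference of -0.70 (SE 0.191, adjusted p = 0.0194), and again every high-dose library lay below every naïve one.

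Of the orphan receptors, Nr2c2 had 78.2, 74.5 and 55.9 CPM in naïve libraries and 42.6, 39.0 and 30.1 in high-dose libraries. The groups were apart, with a log2 difference of -0.72 (SE 0.130, adjusted p = 0.00246). Rora, which encodes RORα, had 102, 105 and 74.95 CPM against 58.5, 55.7 and 51.0, a difference of -0.58 (SE 0.129, adjusted p = 0.00691).

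Rarb, the retinoic acid receptor β gene, had 39.6, 35.0 and 26.4 CPM against 22.8, 24.0 and 18.6 (-0.45, SE 0.144, adjusted p = 0.0399). Ppara had 167, 169 and 163 CPM against 115, 137 and 89.3 (-0.39, SE 0.126, adjusted p = 0.0414). In both the groups were apart, in Rarb by a narrow gap (lowest naïve library 26.4, highest high-dose library 24.0). Esrrg, at -0.30, did not pass (adjusted p = 0.097).

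Rxrg and Esrra were higher. Rxrg had 50.3, 55.6 and 54.1 CPM in naïve libraries and 75.197, 75.045 and 54.1 in high-dose libraries, so 1 high-dose library lay within the naïve range, and the difference was 0.51 (SE 0.131, adjusted p = 0.0145). Esrra had 73.2, 77.8 and 61.2 CPM against 80.2, 89.7 and 79.6, apart by a narrow gap, with a difference of 0.42 (SE 0.126, adjusted p = 0.0291). Thra, Rxra and Nr1h2 were at 0.40, 0.40 and 0.35 without passing (adjusted p = 0.0681, 0.0615 and 0.0757).

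With scaling by library size alone the median of all genes moved by -0.17, the 6 lower receptors were called and neither Rxrg nor Esrra was. In a fit with all 4 groups of female ventricles, 2 remained called, Nr3c1 and Nr2c2. For these fits the share of all genes called is not given here.

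The calls depended on single libraries, and the share of all genes called in each such fit is not given here. Leaving out naïve library 35 left 3 receptors called (Nr3c1, Nr2c2 and Rora), leaving out naïve library 36 left 4, leaving out naïve library 54 left 6, leaving out high-dose library 43 left 5, leaving out high-dose library 66 left 4, and leaving out high-dose library 44 gave 12. Nr3c1, Nr2c2 and Rora kept an adjusted p under 0.05 in all 6 of these fits. None of the 6 libraries went against its label at the Myl4 limit used. Naïve library 35 nevertheless had 193 CPM of Myl4, where the others had at most 22.1. It also had 115 CPM of Myl7 and 34.4 CPM of Sln, both atrial genes, where the others had at most 4.95 and 0.44. The part of atrial tissue in the values of library 35 was not tested.

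**Figure D4:**
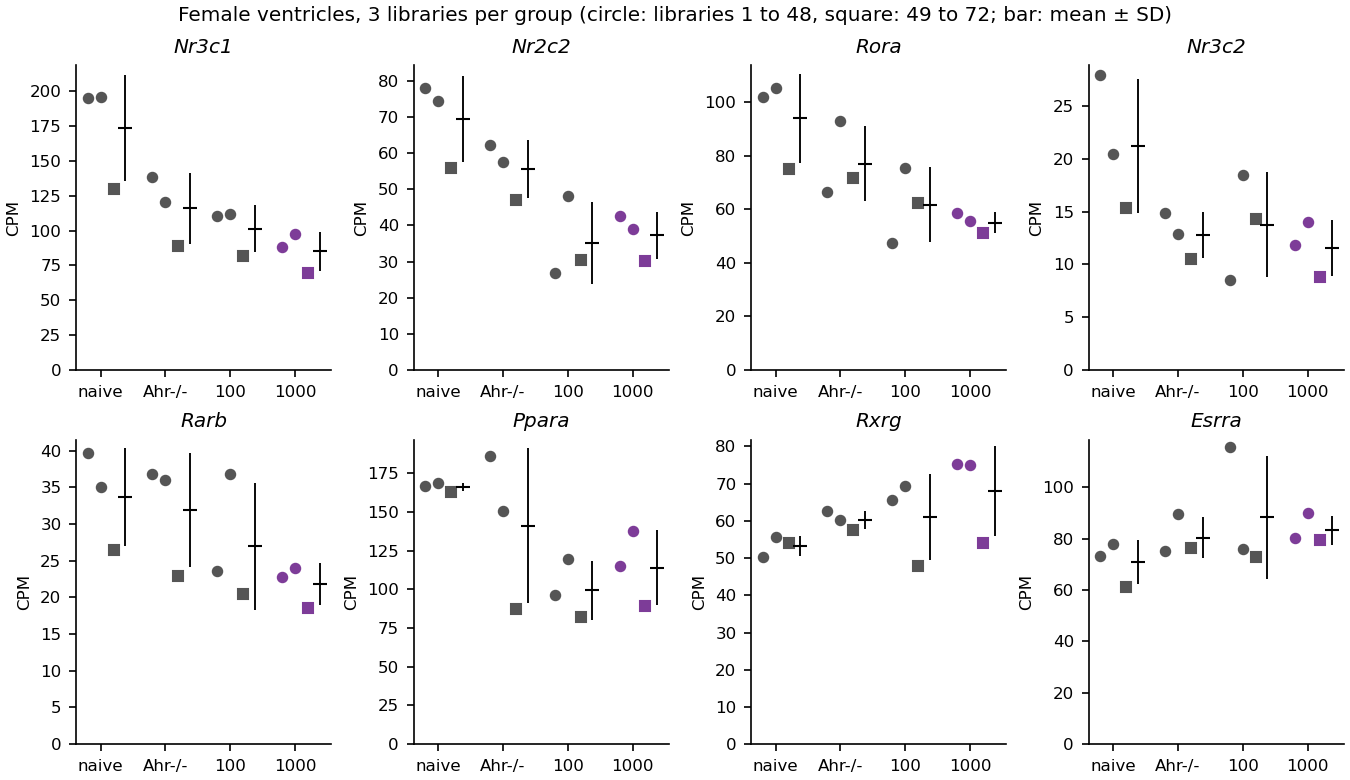
CPM of the 8 called receptors in the 12 female ventricle libraries: naïve, Ahr-/-, low dose (100) and high dose (1000), with the mean ± SD of 3 libraries beside each group. Circles are libraries 1 to 48 and squares libraries 49 to 72, and high-dose libraries are purple. Nr3c1 falls from 130 to 196 CPM in naïve libraries to 69.6 to 97.3 at the high dose, and 1 high-dose square of Rxrg sits among the naïve points.

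Base composition moved with these differences. Over the 13340 tested genes with a transcript in the reference annotation, those in the lowest of 4 equal classes of GC content had a median log2 difference of -0.36 and those in the highest class 0.34, with medians of -0.10 and 0.13 between. The 6 receptors that were lower had 40.9% (Rora), 42.2% (Nr3c1), 46.1% (Nr2c2), 47.5% (Nr3c2), 47.8% (Rarb) and 51.45% (Ppara) GC in their longest transcript, and the 2 that were higher 50.3% (Esrra) and 54.6% (Rxrg). With a GC trend removed from each library, 4 receptors were called: Nr3c1 at -0.52, Nr2c2 at -0.57, Nr3c2 at -0.62 and Ppara at -0.49. The class of longest transcripts had a median of -0.17 and that of shortest 0.18. With a length trend removed 6 receptors were called, of which Rxra at 0.48 was not among the 8. The share of all genes called after either trend was removed is not given here.

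Cell composition was read from marker lists. The 5 cardiomyocyte markers summed to 47119 to 58363 CPM in the 3 high-dose libraries and to 30966 to 34594 in the naïve ones, with 4 of 5 higher and 1 lower in the test. The fibroblast list summed to 947 to 1100 CPM against 1197 to 1770, with Lum at -0.89 and Dcn at -0.47 among its 5 genes. Of the other lists, the smooth muscle genes Tagln (1.01) and Myh11 (0.87), the macrophage gene C1qa (0.96) and the endothelial gene Tie1 (0.70) were higher, and the endothelial gene Tek (-0.37) was lower. Adipocyte markers summed to at most 14.3 CPM in these 6 libraries. The part of these values in the receptor differences was not tested.

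Partners and targets in the same comparison were mixed, beside 12.2% of all genes called higher and 11.4% lower. Of 20 coregulators 7 were lower and 2 higher, with Ncoa2 at -0.73, Ep300 at -0.70 and Tbl1xr1 at -0.61 lower and Hdac3 at 0.86 higher, and the list's median was -0.26. Of 14 glucocorticoid targets 4 were higher and none lower, namely Mt1 at 1.35, Mt2 at 1.45, Fkbp5 at 1.25 and Lcn2 at 1.10. Of 15 PPAR targets the lipid droplet genes Plin2 at 0.48 and Plin5 at 0.43 were higher, and none was lower, a share below that of all genes.

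Of 10 thyroid hormone targets Ucp2, Myh6 and Myh7 were higher by 0.99, 1.01 and 0.85 and Pln lower by -0.56. Of 7 tested retinoid targets 3 were higher and none lower, among them Rarres2 by 0.74 and Tgm2 by 0.56. Liver X targets gave Apoe at 1.04 and Srebf1 at 0.47 higher and Smpdl3a at -0.68 and Mylip at -0.49 lower. In the ligand supply list 2 of 16 tested genes were higher, among them the fatty acid carrier gene Fabp3 at 1.20, and Hsd11b1, which regenerates active glucocorticoid, was lower at -1.31.

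In the other 17 comparisons edgeR called no receptor, and no gene at all in 16 of them (0.0216% of genes in Ahr-/- female ventricle). At an unadjusted p under 0.05, female left atrium gave 8 of 31 receptors for Ahr-/-, 8 for the low and 7 for the high dose. The shares of all genes were 13.7%, 17.6% and 8.42%. Of the 3 Ahr-/- libraries there, 23 and 24 had ventricle-like Myl4 (48.66 and 5.09 CPM), which leaves 1 library with matching markers. Left atrium of males gave 3 of 30, 1 of 31 and 5 of 30, against 3.52%, 1.6% and 11.4%. Right atrium gave 3, 4 and 2 of 31 in females, against 5.51%, 4.27% and 3.91%, and 1, 2 and 3 of 31 in males, against 5.12%, 4.41% and 5.41%. Ventricle gave 3 and 6 of 29 for Ahr-/- and low-dose females, against 9.45% and 17.8%, and 2 of 30, 5 of 30 and 4 of 29 for the 3 male groups, against 4.23%, 13.9% and 9.19%. DESeq2 called Rora (-0.70) and Nr2c2 (-1.0) in low-dose female left atrium, Nr2c2 (-1.19) in high-dose male left atrium, Ppara (-0.58) and Nr2c2 (-0.81) in low-dose female ventricle and Ppara (-0.87) in low-dose male ventricle. In these 4 comparisons DESeq2 called 2.9%, 0.574%, 2.72% and 0.914% of the genes it was run on. High-dose male left atrium includes libraries 51 and 63, and low-dose male ventricle libraries 46, 53 and 71, all against their labels. DESeq2 was not run without them. Without them edgeR called no receptor, and no gene at all, in high-dose male left atrium. Low-dose male ventricle then kept 1 low-dose library, 45.

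Removing the libraries against their labels added calls in male ventricles. With 2 high-dose libraries (41 and 42) against 2 naïve ones (33 and 34), 5 of 29 receptors (17.2%) were called, against 15.9% of all genes: Nr2c2 at -1.51, Rora at -1.20, Nr3c2 at -1.80 and Esrrg at -0.81 were lower and Esrra at 0.94 was higher. Nr2c2 had 22.7 and 29.2 CPM against 88.2 and 62.3, and the high-dose library against its label had 51.6. In Ahr-/- male ventricle Nr2c2 was called at -1.43, 1 of 29 (3.45%) against 0.622% of all genes. In Ahr-/- female right atrium 1 naïve library remained against 2 Ahr-/- libraries, so the spread came from the latter pair alone. There 1 of 31 receptors (3.23%), Pparg at 2.35, passed, against 0.471% of all genes, and the value has no replicate check in the naïve group. High-dose female right atrium then had 1 library in each group and could not be fitted.

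Across the 18 comparisons, which share naïve libraries, each receptor's own log2 differences were as follows. Nr3c1 ran from -0.85 to -0.07, Nr2c2 from -1.18 to -0.24, Rora from -0.96 to -0.20 and Esrrg from -0.80 to -0.04, all below 0. Nr3c2 was below 0 in 17, from -1.11 to 0.07, and Ppara in 15, from -0.88 to 0.47. Rxrb, a retinoid X receptor gene, was above 0 in all 18, from 0.05 to 0.52, and Rxra, Rxrg and Esrra in 17 each. With scaling by library size alone Nr3c1, Nr2c2, Rora and Esrrg were again below 0 in 18, and Rxrb was above 0 in 17, Rxra in 15, Rxrg in 16 and Esrra in 17. With a GC trend removed from each library Nr2c2 was below 0 in 18, Nr3c1 and Rora in 17 and Esrrg in 15, while Rxrb and Rxra were each above 0 in 9. The median of the lowest GC class of all genes was below 0 in every one of these comparisons, from -0.36 to -0.04, and that of the highest above 0, from 0.05 to 0.39.

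The pairs of smallest p outside high-dose female ventricle were mostly drawn from these genes. Nr2c2 in low-dose female left atrium had 78.8 ± 12.3 CPM in naïve and 36.8 ± 9.53 in low-dose libraries (SD, n = 3), a difference of -0.98 that missed the threshold (edgeR, adjusted p = 0.153), with Rora at -0.69 (adjusted p = 0.157). In low-dose female ventricle Nr2c2 was at -0.82 and Ppara at -0.59 (adjusted p = 0.147 and 0.161), Ppara with 166 ± 2.77 CPM in naïve and 99.3 ± 18.9 in low-dose libraries. In high-dose male left atrium Nr2c2 was at -1.18 and Nr3c1 at -0.79 (both adjusted p = 0.369), and in low-dose male ventricle Ppara was at -0.88 and Nr2c2 at -0.87 (adjusted p = 0.29 and 0.303).

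High-dose male ventricle had Rora at -0.94 and Nr2c2 at -1.05, Ahr-/- male ventricle Ppara at -0.65 and Nr3c2 at -0.85, and Ahr-/- female ventricle Rarg at 0.65 and Nr3c2 at -0.65 (adjusted p from 0.493 to 0.827). In the left atrium, Ahr-/- females had Esrra at 0.58 and Nr3c2 at -1.09, and high-dose females Rora at -0.73 and Esr1 at 1.25. Ahr-/- males had Nr3c2 at -0.93 and Nr3c1 at -0.52 there, and low-dose males Ppara at -0.73 and Esrrg at -0.43. For these left atrium groups edgeR's adjusted p ran from 0.359 to 0.999. The Ahr-/- female values include libraries 23 and 24, which had ventricle-like Myl4. Over the alternative settings Esrra ran there from 0.29 to 0.77 and Nr3c2 from -1.73 to -0.58. In right atrium of females Nr3c1 was at -0.72, -0.65 and -0.65 in the Ahr-/-, low-dose and high-dose groups, with Nr3c2 at -1.02, Rora at -0.73 and Thrb at -0.56 beside it. In right atrium of males Rxrg was at 0.72 and 0.86 in the low-dose and high-dose groups, with Nr2f6 at 0.47 and Rarg at -0.52, and Ahr-/- males had Nr4a3 at -1.36 and Pparg at 0.87 (adjusted p at least 0.817 in all 6).

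**Figure D5:**
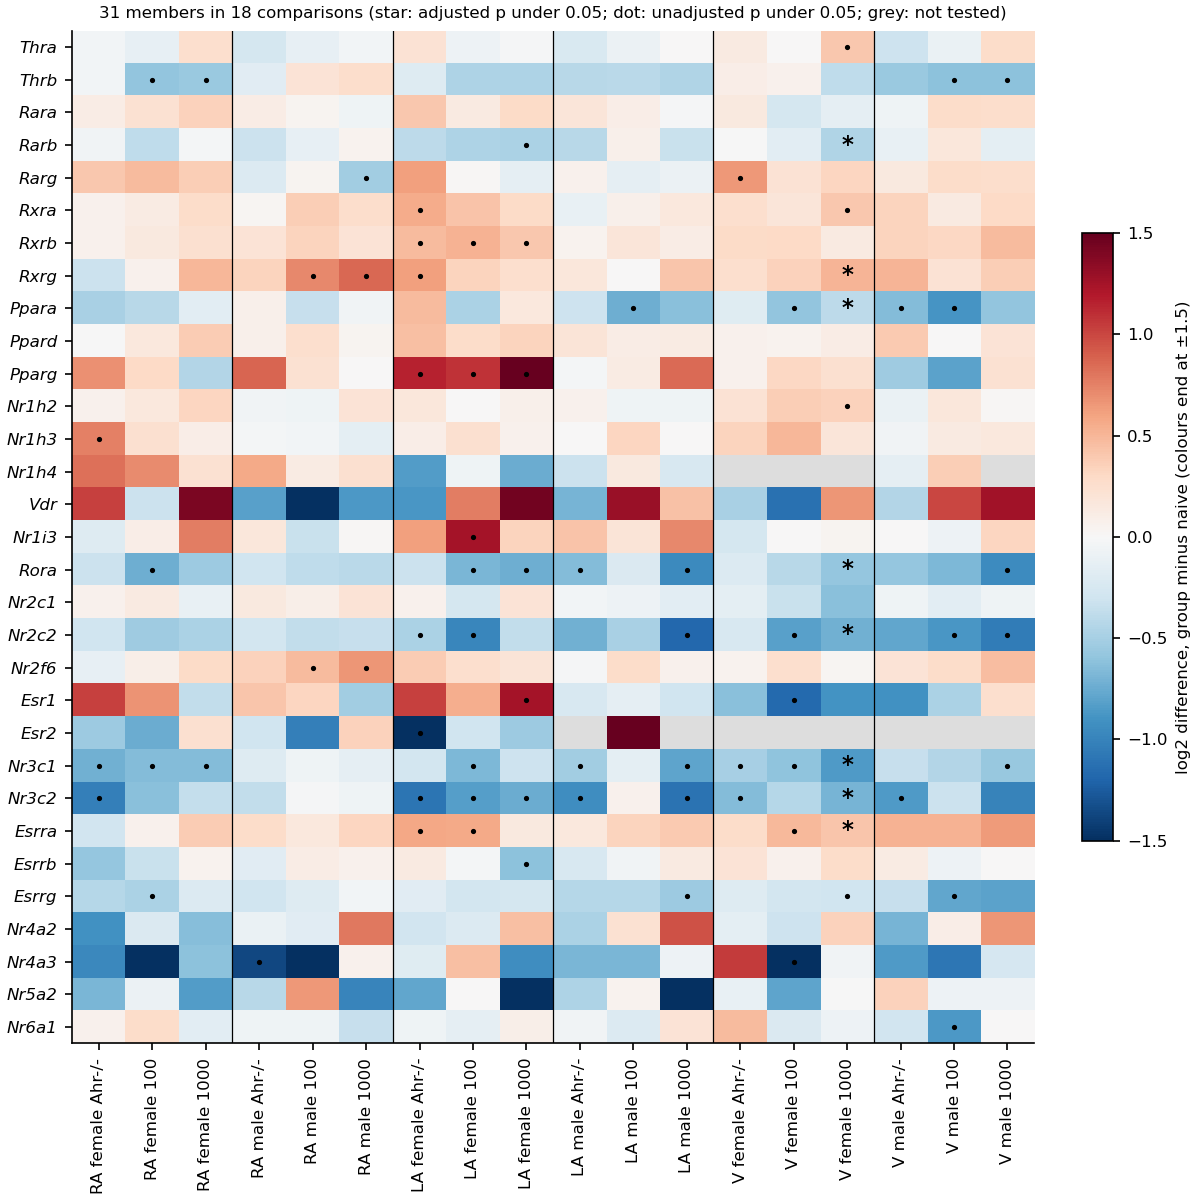
Log2 difference from naïve mice of the same sex and chamber for 31 receptors (rows) in 18 comparisons (columns; Ahr-/-, 100 for the low and 1000 for the high dose), with colours ending at ±1.5. Stars mark an adjusted p under 0.05, dots an unadjusted p under 0.05 and grey cells receptors below the minimum count. The 8 stars stand in 1 column, high-dose female ventricle, and the rows of Nr3c1, Nr2c2, Rora and Esrrg are blue throughout.

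Pparg, which drives fat cell formation, is given beside the adipocyte markers. In female left atrium it had 7.84, 6.20 and 12.7 CPM in naïve libraries, whose 7 adipocyte markers summed to 28.1, 2.83 and 82.2 CPM. High-dose libraries had 18.4, 16.3 and 50.3 CPM of Pparg and adipocyte sums of 167, 56.3 and 1356. The library of highest Pparg was also that of highest adipocyte sum in both groups. The difference for Pparg was 1.61 on the log2 scale without passing the test, and the part of adipose tissue in it was not tested.

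In female right atrium the 3 Ahr-/- libraries had 36.8, 24.9 and 36.5 CPM of Pparg and adipocyte sums of 2449, 902 and 607, while the only naïve library with matching markers had 5.93 CPM and a sum of 7.67. The last of the Ahr-/- libraries, 56, went against its label by sex genes, with Xist at 0.13 and Y-linked genes at 303.7 CPM. It had the lowest adipocyte sum of the 3 but not the lowest Pparg. In high-dose female left atrium Esr1 had 9.93, 7.65 and 18.7 CPM in the libraries with adipocyte sums of 167, 56.3 and 1356.

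Nr4a3, an immediate early gene of the NR4A subfamily, ran from 3.97 to 10.3 CPM in the 3 naïve libraries of male right atrium and from 2.14 to 3.53 in the 3 Ahr-/- libraries, so the groups did not overlap. The difference of -1.36 did not pass edgeR's test (adjusted p = 0.821). Over all 72 libraries Nr4a3 ran from 0 to 14.5 CPM.

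Whether TCDD or loss of Ahr acted differently by sex was tested as an interaction in each chamber and group (9 models of 12 libraries). edgeR called no receptor in any of the 9, with 0 to 2 of 30 or 31 at an unadjusted p under 0.05, and DESeq2 called none, where no gene at all was called by edgeR. At an unadjusted p these were Thrb in right atrium at the low dose, Thrb and Rarg in right atrium at the high dose and Nr2c2 in left atrium at the high dose, against 1.19%, 1.77% and 2.79% of all genes. The other models had 0 receptors, against 4.53%, 3.31% and 2.74% of all genes for Ahr-/- in right atrium, left atrium and ventricle, 0.926% and 0.929% for the low dose in left atrium and ventricle and 4.53% for the high dose in ventricle. Without the libraries against their labels 8.03% of genes were called in high-dose ventricle, and no receptor. In ventricles at the high dose the smallest unadjusted p of a receptor was 0.114 in edgeR's test with all libraries. The calls in females and their absence in males are thus not shown to differ. That fit includes male libraries 53 and 65, which went against their labels. The absence in males holds with all libraries only, since without such libraries 17.2% of receptors were called there, against 15.9% of all genes.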

How the data were processed

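RNA from dissected chambers was sequenced after poly-A selection. The authors deposited raw counts of reads over the coding region of each gene, made with CASAVA 1.8, TopHat and R packages on mm10 (GRCm38). Whether strand was used in counting is not given in the sources used here. The table held 24237 genes, and CPM was computed from it as counts per 1000000 of the library total.

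Groups came from the labels. Each group was compared with naïve mice of the same sex and chamber by edgeR 4.0.16 (R 4.3.3), with the quasi-likelihood test, TMM factors, a minimum count of 10 in filterByExpr (total 15) and Benjamini-Hochberg adjustment over all genes tested. Chambers and sexes were compared in 1 fit of 72 libraries. Adjusted p under 0.05 was called, whereas the study used 0.0001 with DESeq. DESeq2 1.42.0 was an alternative. The tests were checked on simulated data. In comparisons within a chamber the p-values measure the spread between the 3 libraries labelled as a group. Where a group holds libraries against their labels, this spread may include differences of chamber or sex besides those between mice. In the chamber and sex contrasts they measure the spread between libraries within groups, pooled over the fit. There the 3 chambers of a heart were treated as independent. Depth limits receptors near 3 counts, and this floor covers counting error only.

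The genes given with values were all 33 receptors for their level, every receptor called in a contrast, the 2 receptors of smallest p in each of the 18 comparisons, and up to 4 called genes of smallest p in each list of targets, coregulators and ligand supply, of which some are not reported here. Pparg in female left and right atrium, Esr1 and Nr4a3 per library and the other markers were picked out with their values already seen. The receptors and the lists were chosen with earlier results of these data known. Transcript length and GC content were read from the longest GENCODE transcript of each gene, and trends were removed with natural splines of 5 degrees of freedom, both chosen after seeing the data. Promoters came from RefSeq (GRCm38.p6).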

Additional observations from a re-analysis of the deposited data

How the results depend on the processing

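No called difference, and none of the 2 receptors of smallest p in each comparison, changed sign under an alternative. The side of 0 over the 18 comparisons did change for some receptors not called. With a GC trend removed Rxra and Rxrb were above 0 in 9 each. Rara and Nr1h2 were then below 0 in 14 each, against 5 before, and Nr2f6 in 13, against 2. Thra, at 0.40 in high-dose female ventricle, was then at most 0.03 in any comparison and below 0 in 17. No paired analysis was possible because library numbers are unique to each sample and the labels do not tie libraries to hearts. In high-dose female ventricle 8 receptors were called, 2 when a single fit held the 4 groups of that sex and chamber, 4 with a GC trend removed, 6 with a length trend removed, 0 at an adjusted p under 0.0001 (4 of all genes passed there) and between 3 and 12 with 1 library left out. The counts by chamber, 12 for right atrium and 9 for left atrium against ventricle, were 19 and 16 with libraries 1 to 48, 21 and 18 without the libraries against their labels and 0 and 0 with naïve libraries only. In comparisons with 0 receptors called, DESeq2 called 2 in low-dose female left atrium, 1 in high-dose male left atrium, 2 in low-dose female ventricle and 1 in low-dose male ventricle. Libraries 1 to 48 alone gave 10 in Ahr-/- female left atrium, where both Ahr-/- libraries, 23 and 24, had ventricle-like Myl4, 1 in Ahr-/- male ventricle, 3 in low-dose male ventricle and 5 in high-dose male ventricle. Without the libraries against their labels the counts were 1 in Ahr-/- female right atrium (1 naïve library against 2), 1 in Ahr-/- male ventricle and 5 in high-dose male ventricle, and high-dose female right atrium could not be fitted. Leaving out 1 library gave 0 to 1 in Ahr-/- female left atrium (Vdr at -3.60 without library 58) and 0 to 1 in Ahr-/- female ventricle (Rarg at 0.72 without library 39). The causes were not tested. For libraries 1 to 48, trends removed, the single fit of 4 groups and 1 library left out, the shares of all genes called are not given here. Those counts show how far the calls moved and are not results about the receptors. Scaling by library size alone moved the median of all genes by more than 0.1 also in low-dose female left atrium (-0.12), Ahr-/- female right atrium (0.12), low-dose female ventricle (-0.17) and the high-dose interactions of left atrium (0.11) and ventricle (-0.15). Esr2, Pgr and Hnf4a lay near the floor of 3 counts in most libraries.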
